A study of Ovis aries with 7 samples.

Results

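EPYC, KERA, LUM and DCN encode epiphycan, keratocan, lumican and decorin, 4 members of the small leucine-rich proteoglycan family. They were chosen as neighbouring genes of 1 genomic cluster, of which EPYC and DCN in D2 medium spiny neurons (MSNs) and KERA in D1 MSNs had been found lower in OVT73 sheep in these same data. All 4 were found by symbol among the 26479 features of the count tables. Nuclei from the striatum of sheep aged 5 years were sequenced as 7 droplet libraries. The 3 OVT73 libraries each pooled 2 sheep, 6 in all, that carry full-length human HTT cDNA with an expanded polyglutamine tract under a human HTT promoter segment, all from 1 transgenic line. The 4 control libraries came from 6 sheep without the transgene, with 1 sheep in each of control libraries 1 and 2 and a pool of 2 in each of control libraries 3 and 4. An added HTT feature in the gene list ranged from 0.961 to 4.88 CPM across OVT73 and from 0.0475 to 0.236 across control libraries. A UMI (unique molecular identifier) marks 1 captured transcript, and CPM is the UMIs of a gene per 1000000 UMIs of the same nuclei.

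Small leucine-rich proteoglycans are secreted proteins with a core of leucine-rich repeats that binds collagen, and most carry glycosaminoglycan chains. Decorin, of class I, also binds growth factors such as TGF-beta. Lumican and keratocan, of class II, carry keratan sulfate and are best known from the cornea, where they space collagen fibrils. Epiphycan, of class III, is known from growth plate cartilage. In brain, decorin and lumican are known as products of fibroblasts of the meninges and vessel walls. In the ARS-UI_Ramb_v3.0 assembly of sheep the order on chromosome 3 is EPYC, KERA, LUM, DCN, with 0 other protein-coding genes between them. The count tables were made on another assembly, Oar_rambouillet_v1.0, and name them ENSOARG00020009542, ENSOARG00020009608, ENSOARG00020009658 and ENSOARG00020009720.

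The libraries held 20887378 to 70473426 UMIs in 35272 barcodes, and 32599 nuclei were kept. The median nucleus held 2221 to 2562 UMIs by OVT73 library and 1860 to 2170 by control library. Any 2 libraries shared between 2 and 20 barcode sequences. Clusters were named from marker genes into 14 classes, called "like" the cell type, and 10 clusters had no name. The 2602 D1 MSN-like nuclei formed clusters 7 and 11, and the 2278 D2 MSN-like nuclei clusters 5 and 19. TAC1 was at 332 and 106 CPM in clusters 7 and 11 against 12.1 and 15.7 in clusters 5 and 19, and DRD2 at 2.55 and 1.68 against 43.0 and 61.5. The D2 marker PENK was at 50.6 CPM in cluster 5 but only 7.95 in cluster 19, against 2.62 and 1.16 in clusters 7 and 11. The D2 markers ADORA2A, GPR6 and SP9 were higher in cluster 19 than in cluster 5. DRD1, a defining D1 marker, had no feature under that symbol, so that the D1 name rests mainly on TAC1 and EBF1.

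EPYC transcripts lay mostly in MSNs. Of its 2717 UMIs in nuclei kept, D1 MSN-like nuclei held 1537 and D2 MSN-like nuclei 936. These were 91.0% of EPYC UMIs, where the same nuclei held 60.2% of all UMIs. Its mean level was 27.8 CPM ± 13.8 (SD, n = 7 libraries) in the D1 class and 20.5 ± 11.8 (SD, n = 7) in the D2 class. Eccentric MSN-like nuclei followed at 12.7 CPM ± 11.1 (SD, n = 7), then PV/Th interneuron-like nuclei at 5.51 ± 1.94 (SD, n = 7). Each mean in this order lay within 1 SD of the mean before it. These SDs span OVT73 and control libraries together and do not pair classes of the same library. In glia EPYC was at or near 0, with 8 UMIs in 15144 oligodendrocyte-like, 6 in 2916 OPC-like, 3 in 1584 astrocyte-like and 1 in 2791 microglia-like nuclei.

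The share of nuclei with an EPYC UMI was 30.5% of D1 MSN-like nuclei (95% Wilson interval 28.7 to 32.3) at a median of 22501 UMIs per nucleus. It was 22.9% of D2 MSN-like nuclei (21.2 to 24.7) at 23120 UMIs and 0.0528% of oligodendrocyte-like nuclei (0.0268 to 0.104) at 1767 UMIs. With each nucleus thinned to 1000 UMIs, the shares were 2.82%, 2.06% and 0.0430%. Intervals and limits here cover counting error only. EPYC also had several UMIs in single nuclei, where 419 D1 MSN-like nuclei held 1, 200 held 2 and 174 held 3 or more, up to 12. For the D2 class the numbers were 297, 116 and 109, up to 8. Of the EPYC UMIs elsewhere, 42 lay in an unnamed cluster of 868 nuclei with MSN markers and a median of 1254 UMIs. Another 38 lay in 40 nuclei of a cluster of which 81.6% had been removed as doublets.

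KERA followed the same classes with far fewer UMIs. It had 127 UMIs in nuclei kept, of which the D1 class held 75 and the D2 class 42, together 92.1%. The mean levels were 1.49 CPM ± 1.07 (SD, n = 7) and 0.917 ± 0.729 (SD, n = 7). Another 5 UMIs were in PV/Th interneuron-like and 2 in eccentric MSN-like nuclei. KERA had 0 UMIs in oligodendrocyte-like nuclei, which allows up to 0.0948 CPM, and 0 in OPC-like (up to 0.251), astrocyte-like (up to 0.504) and microglia-like nuclei (up to 0.685). A UMI was found in 2.69% of D1 MSN-like nuclei (2.13 to 3.39).

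DCN was found in MSN-like and in perivascular-like nuclei. Of its 430 UMIs, the D1 class held 216, the D2 class 135 and eccentric MSN-like nuclei 20. The mean levels were 4.34 CPM ± 3.61 (SD, n = 7) for the D1 class and 2.94 ± 1.90 (SD, n = 7) for the D2 class. Another 20 UMIs lay in only 37 perivascular-like nuclei, a level of 301 CPM with the libraries summed. There 12 of 37 nuclei held a DCN UMI, 32.4% (19.6 to 48.5), at a median of 1508 UMIs per nucleus, against 5.995% (5.15 to 6.97) of D1 MSN-like nuclei at 22501. Oligodendrocyte-like nuclei had 3 DCN UMIs, and OPC-like and microglia-like nuclei 0.

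LUM was the member with the fewest UMIs and was found in the same perivascular-like nuclei. It had 74 UMIs, with 37 for the D1 class, 13 for the D2 class and 10 for perivascular-like nuclei. The last stood at 151 CPM, with a UMI in 8 of 37 nuclei, 21.6% (11.4 to 37.2). D1 MSN-like nuclei had a mean of 0.705 CPM ± 0.428 (SD, n = 7) and D2 MSN-like nuclei 0.230 ± 0.207 (SD, n = 7). EPYC and KERA had 0 UMIs in perivascular-like nuclei, which allows up to 45.2 CPM, so that a level like that of EPYC in MSNs was not detectable there. OVT73 library 1 held 18 of these 37 nuclei, and groups were not compared in them.

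The collagen genes among the fibroblast markers had few UMIs in MSNs, and the other markers of that list had more. COL1A2, COL3A1 and COL1A1 had 34, 18 and 6 UMIs in perivascular-like nuclei beside 20 of DCN. They had 3, 2 and 1 UMIs in D1 MSN-like nuclei beside 216 of DCN, and 9, 12 and 8 in D2 MSN-like nuclei beside 135. The 9 fibroblast markers with a feature, of 10 listed, summed in D1 MSN-like nuclei to 33.6 to 42.3 CPM in OVT73 and 40.0 to 61.8 in control libraries. In D2 MSN-like nuclei the sums were 42.0 to 50.4 and 44.6 to 68.5 CPM, most of it LAMA2. The 7 pericyte markers with a feature, of 8, summed to 13.7 to 15.3 against 16.7 to 17.9 CPM in D1 and 15.3 to 20.2 against 16.6 to 22.1 in D2. These sums are not specific to vessel wall cells. LAMA2 stood at 15292 CPM in perivascular-like and also at 1913 in oligodendrocyte-like nuclei. SLC13A3 of the fibroblast list and ACTA2 and MYH11 of the pericyte list had 0 UMIs in perivascular-like nuclei. The part of these markers in the OVT73 and control levels was not tested.

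**Figure D1:**
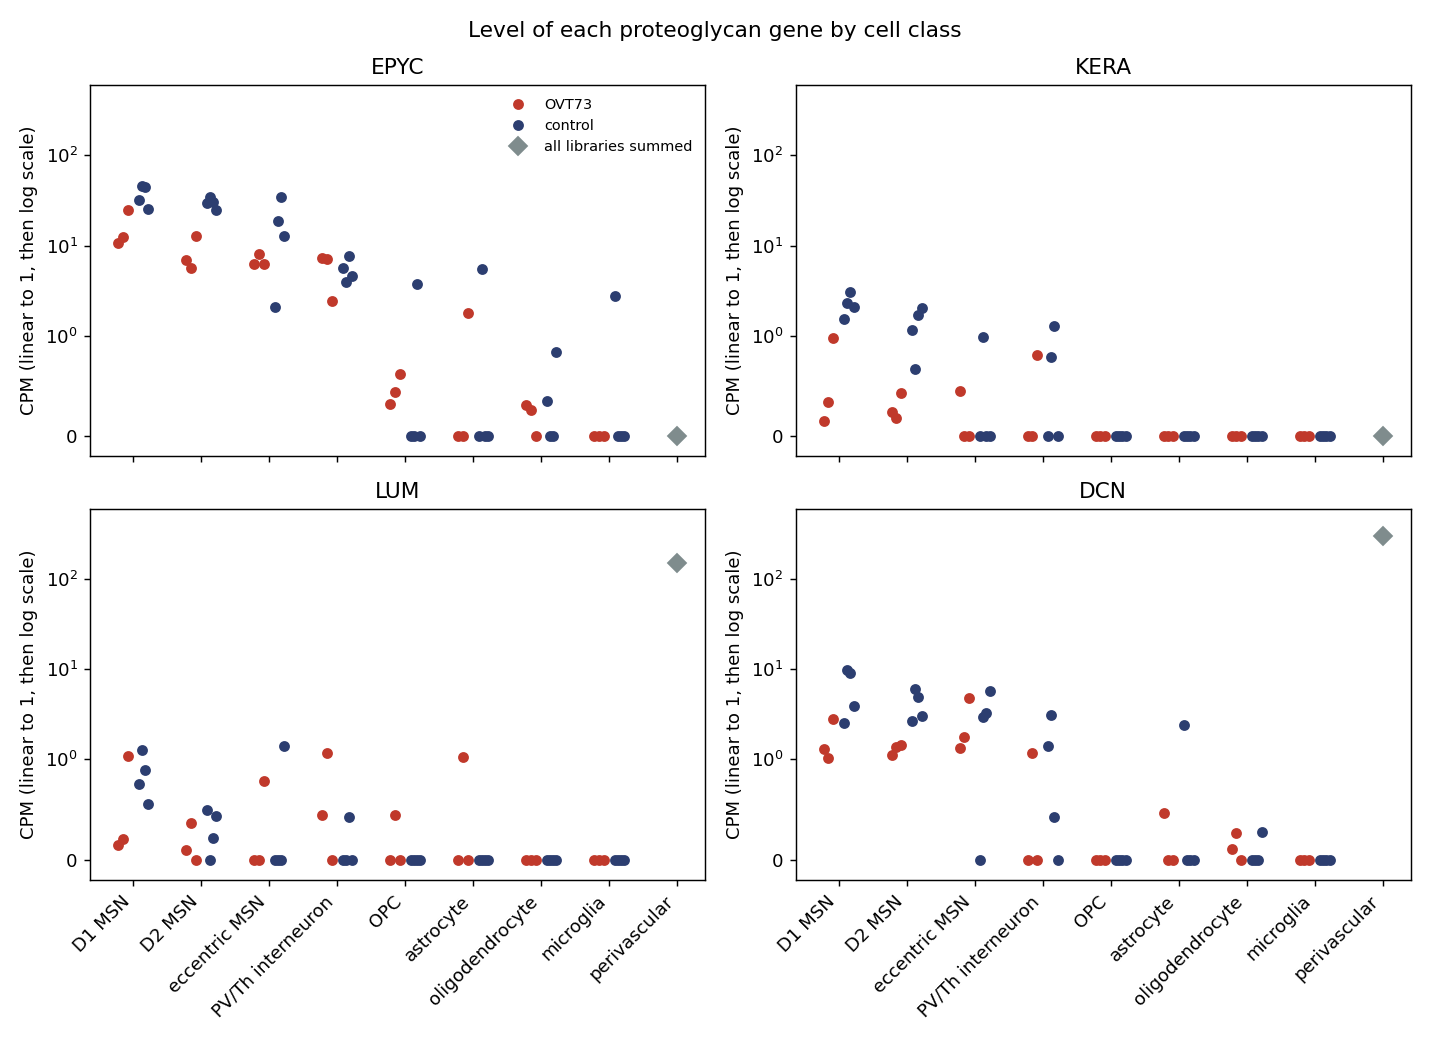
CPM of each gene (vertical axes, linear to 1 and logarithmic above) by cell class, 1 point per library (OVT73 red, control blue), with a grey diamond for perivascular-like nuclei of all libraries summed. Among the 8 classes plotted by library EPYC has its highest mean in D1 MSNs, and it has 0 UMIs in the perivascular class, which allows up to 45.2 CPM, where LUM stands at 151 and DCN at 301 CPM.

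The D2 and D1 MSN-like nuclei of the same library were compared next. EPYC and DCN had been chosen for low D2 levels in OVT73 libraries, and these levels enter the comparison, so that over all 7 libraries it is a description without a test. The members were left out of the genes used for clustering. The D1 and D2 levels of EPYC were 10.6 and 6.94 CPM in OVT73 library 1, 12.4 and 5.61 in OVT73 library 2, and 24.7 and 12.9 in OVT73 library 3. In control libraries 1 to 4 they were 31.9 and 29.5, 45.5 and 34.1, 44.4 and 30.2, and 25.2 and 24.6 CPM. EPYC was thus lower in D2 in 7 of 7 libraries. The D1 level was 1.53 to 2.22 times the D2 level in OVT73 libraries and 1.03 to 1.47 times in control libraries. The fitted log2 difference over all libraries was -0.50 (SE 0.11, edgeR with library as a block), and in the largest cluster of each class (7 against 5), a subset added after the data had been seen, it was -0.95 (SE 0.14).

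The comparison was also fitted in the 4 control libraries alone, added after the data had been seen. By edgeR 0 of 3 members fitted passed the adjusted threshold there, and nothing is read from this count. Control levels of EPYC and DCN in D2 and of KERA in D1 were the other side of the contrast that chose them. The values in control libraries are therefore a description too, and no p is given for the members. KERA passed the filter on low counts only in the control libraries, where it is high, and not over all 7. The log2 difference between D2 and D1 was -0.28 for EPYC (SE 0.09, lower in D2 in 4 of 4 control libraries). It was -0.55 for DCN (SE 0.20) and -0.59 for KERA (SE 0.33). Of the 11574 genes tested in control libraries, 6.29% passed the adjusted threshold of 0.05 and 3.13% were lower in D2. Over all 7 libraries DCN was lower in D2 in 5 of 7 (fitted log2 difference -0.45, SE 0.17) and LUM and KERA, with too few UMIs for the count model there, in 6 of 7 each. Over all 7 libraries, 12.7% of 11799 genes passed by edgeR and 6.31% were lower in D2.

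The members also differed between clusters of 1 class, given here as a description. Cluster 7 (1847 nuclei, led by FSHR and MUC15) had 33.4 CPM of EPYC, 1.67 of KERA, 0.824 of LUM and 4.50 of DCN. Cluster 11 (755 nuclei, led by RELN and MCTP1) had 7.67, 0.322, 0.161 and 1.32 CPM. EPYC, KERA and DCN were higher in cluster 7 in 7 of 7 libraries and LUM in 6 of 7. Nuclei of cluster 11 were deeper, with a median of 39302 UMIs against 18861. Cluster 11 took 51.3% of D1 MSN-like nuclei in OVT73 library 1, 51.2% in control library 4 and 11.4 to 22.2% in the other libraries. In D2 MSN-like nuclei, cluster 5 (2055 nuclei) had 16.3 CPM of EPYC and cluster 19 (223 nuclei, led by ALK and NTNG1) 7.27, with cluster 5 higher in 6 of 7 libraries.

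The levels by group are given as a description, without a test, since EPYC and DCN in D2 and KERA in D1 were chosen on this contrast. EPYC in D2 MSN-like nuclei was at 6.94, 5.61 and 12.9 CPM in OVT73 libraries 1 to 3 and 29.5, 34.1, 30.2 and 24.6 in control libraries 1 to 4. The groups did not overlap, and OVT73 library 3 was the highest of its group. The means were 8.48 ± 3.87 (SD, n = 3) and 29.6 ± 3.92 (SD, n = 4), and the fitted log2 fold change was -1.74 (SE 0.26). In D1 MSN-like nuclei the levels were 10.6, 12.4 and 24.7 against 31.9, 45.5, 44.4 and 25.2 CPM. OVT73 library 3 lay just under control library 4, and the groups did not overlap. The means were 15.9 ± 7.65 (SD, n = 3) and 36.7 ± 9.84 (SD, n = 4), with a fitted log2 fold change of -1.13 (SE 0.30).

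Fewer OVT73 nuclei held EPYC, and those that did held fewer UMIs. In D1 MSN-like nuclei 24.6% ± 7.05 (SD, n = 3) of OVT73 and 40.2% ± 2.37 (SD, n = 4) of control nuclei had a UMI, and in D2 15.6% ± 5.94 and 34.2% ± 3.64. The median depth of D1 MSN-like nuclei was 19970 to 32217 UMIs in OVT73 and 15396 to 24268 in control libraries. Thinned to 5000 UMIs, the D1 shares were 8.12% ± 3.79 and 17.5% ± 3.14, with 11 OVT73 and 15 control nuclei under that depth left out. In D2 they were 4.94% ± 2.04 and 14.5% ± 0.941, with 16 and 10 nuclei left out. A D2 MSN-like nucleus with EPYC held on average 1.35 to 1.64 UMIs in OVT73 and 1.89 to 2.10 in control libraries, and a D1 nucleus 1.59 to 1.84 and 1.90 to 2.55.

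DCN in D2 MSN-like nuclei was at 1.11, 1.38 and 1.43 CPM in OVT73 libraries 1 to 3 and 2.67, 6.06, 4.88 and 3.04 in control libraries 1 to 4. The groups did not overlap by summed UMIs, and the spread was wider among the controls. By the mean of CPM per nucleus they overlapped, at up to 3.41 in OVT73 and from 3.31 in control libraries. The means were 1.31 ± 0.174 (SD, n = 3) and 4.16 ± 1.59 (SD, n = 4), with a fitted log2 fold change of -1.56 (SE 0.38). DCN in D2 passed the filter on low counts only through the control libraries, where it is high. In D1 MSN-like nuclei DCN was at 1.31, 1.03 and 2.81 against 2.53, 9.77, 9.08 and 3.87 CPM. OVT73 library 3 lay above control library 1, so that the groups overlapped, and the fitted log2 fold change was -1.81 (SE 0.53).

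KERA in D1 MSN-like nuclei had 3, 5 and 8 UMIs in OVT73 libraries 1 to 3 and 12, 11, 17 and 19 in control libraries 1 to 4. This gave 0.151, 0.344 and 0.977 against 1.52, 2.34, 3.03 and 2.10 CPM, without overlap, and a fitted log2 fold change of -2.27 (SE 0.57). KERA passed the filter on low counts there through the control libraries, where it is high. D2 MSN-like nuclei had 5, 2 and 3 against 7, 3, 8 and 14 UMIs, or 0.285 CPM ± 0.128 (SD, n = 3) and 1.39 ± 0.594 (SD, n = 4). The CPM of the groups did not overlap by summed UMIs and overlapped by the mean of CPM per nucleus (up to 0.733 in OVT73 and from 0.437 in control libraries), and KERA did not pass the filter there.

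LUM passed the filter in neither class, and its groups overlapped in both. In D1 MSN-like nuclei it had 3, 3 and 9 UMIs in the OVT73 libraries and 6, 6, 5 and 5 in the control libraries, or 0.486 CPM ± 0.532 (SD, n = 3) and 0.869 ± 0.304 (SD, n = 4). D2 MSN-like nuclei had 2, 4 and 0 against 3, 0, 1 and 3 UMIs. OVT73 library 3 was within the control range in D1 and at 0 in D2.

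The count model took 3 of the 4 members in D1 and 2 in D2. Every OVT73 library lay below every control library for EPYC and KERA in D1 and for EPYC and DCN in D2 among those fitted, as for 4.45% of the 12392 genes fitted in D1 and 5.79% of the 11974 in D2. By edgeR 0.0% of genes passed the adjusted threshold in either class, while 500 and 561 genes had an unadjusted p under 0.05 and DESeq2 called 3 and 6. Nothing is read from the members' count, since this contrast chose them. KERA in D1 and DCN in D2 also passed the filter on low counts only through the control libraries.

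**Figure D2:**
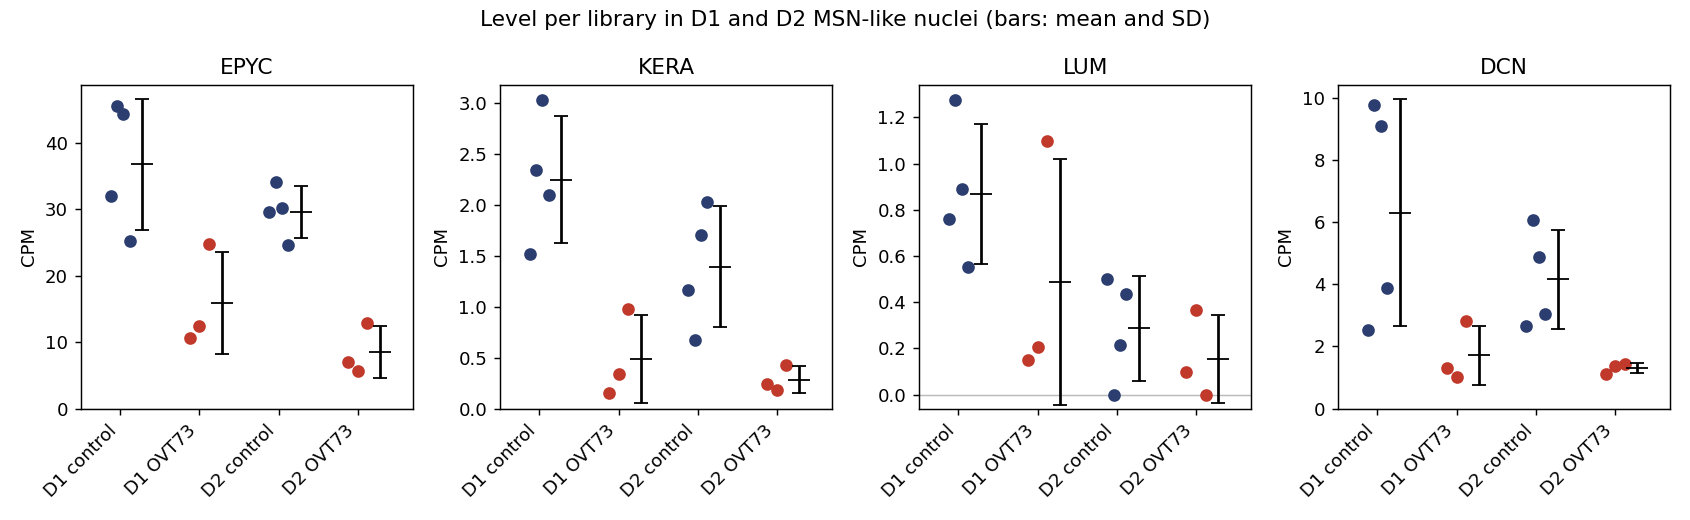
CPM of each gene (vertical axes, linear) in D1 and D2 MSN-like nuclei, 1 point per library (control blue, OVT73 red), with bars for the mean and SD of 4 control or 3 OVT73 libraries. By summed UMIs EPYC and KERA do not overlap between groups in either class, DCN overlaps in D1, and LUM overlaps in both. By the mean of CPM per nucleus KERA and DCN overlap in D2, and KERA was not fitted there. Every OVT73 library lay below every control library for 4.45% of genes fitted in D1 and 5.79% in D2. The contrast shown chose the members, and nothing is read from these overlaps.

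The EPYC levels of the groups did not overlap in clusters 7, 11 and 5 and overlapped in cluster 19, and by depth they overlapped in 3 of 6 bands. These subsets are of the same nuclei and libraries whose contrast chose the members, so that they are a description. The share of all genes without overlap in them was not computed, and nothing is read from these counts. In cluster 7 EPYC was at 23.6 CPM ± 11.4 (SD, n = 3) over OVT73 and 56.0 ± 12.5 (SD, n = 4) in control libraries, with OVT73 library 3 at 36.3 just under control library 1 at 37.5. In cluster 11 it was at 5.60 ± 0.388 and 12.1 ± 2.12, and in cluster 5 at 8.53 ± 3.42 and 32.1 ± 4.67, without overlap. In cluster 19, the smallest, the groups overlapped at 7.99 ± 8.49 and 9.26 ± 5.81 from 43 UMIs. EPYC was higher in nuclei of 10000 to 30000 UMIs than in those over 30000 in 7 of 7 libraries in both classes. Between 10000 and 30000 UMIs the D1 levels were 23.7 ± 10.6 and 52.2 ± 7.11 CPM and the D2 levels 13.4 ± 8.83 and 41.1 ± 1.15, without overlap. Over 30000 UMIs the D1 groups overlapped (7.42 to 10.5 against 9.43 to 34.9 CPM) and the D2 groups did not (3.24 to 4.80 against 9.05 to 22.6). Under 10000 UMIs, with 10 to 50 nuclei per library, they overlapped in D1 (0 to 68.1 against 31.0 to 107.2 CPM) and in D2 (28.8 to 57.8 against 27.8 to 79.1).

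DCN and KERA were less even over these clusters, given likewise as a description without the share over all genes. DCN did not overlap in cluster 11 (0.683 CPM ± 0.0719 in OVT73 against 2.56 ± 1.26 in control libraries) or cluster 5 (1.14 ± 0.125 against 4.54 ± 1.57) and overlapped in clusters 7 and 19. KERA did not overlap in cluster 7 (0.748 ± 0.535 against 3.55 ± 1.28) or cluster 5 (0.313 ± 0.141 against 1.502 ± 0.655). In cluster 11 KERA was at 0 in OVT73 libraries 1 and 2 and in control library 1. In cluster 19 it had 1 UMI in all.

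**Figure D3:**
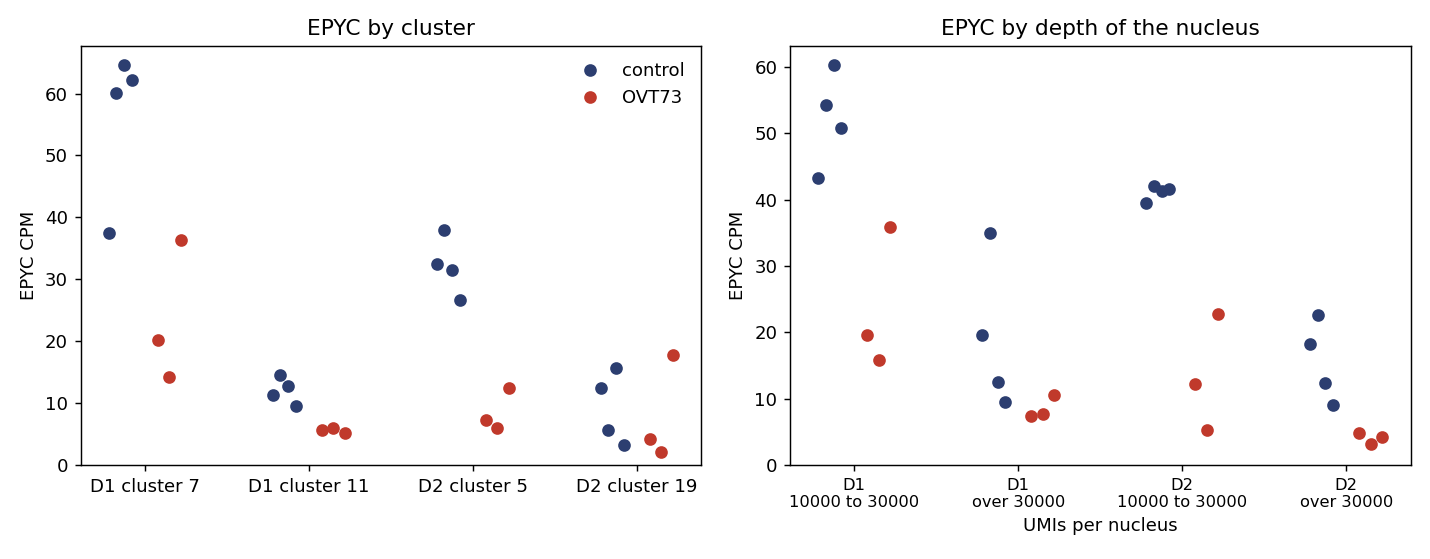
EPYC CPM (vertical axes) per library by cluster (left) and by UMIs per nucleus for nuclei of 10000 or more (right), control libraries in blue and OVT73 libraries in red. EPYC is lower in cluster 11 than in cluster 7 and lower in deeper nuclei, and the groups overlap in cluster 19 and in D1 nuclei over 30000 UMIs.

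In the other classes EPYC passed the filter on low counts only in eccentric MSN-like nuclei. It passed there only through control libraries with levels above those of OVT73, so that the fit is given as a description. The levels were 6.26, 8.07 and 6.31 CPM in OVT73 libraries 1 to 3 and 2.07, 18.8, 34.6 and 12.8 in control libraries 1 to 4. Control library 1, with 25 such nuclei and 1 EPYC UMI, lay below all OVT73 libraries and the other 3 above. The log2 fold change was -1.28 (SE 0.53). It did not pass the adjusted threshold by edgeR, and nothing is read from this. Of 7693 genes there 0.0% passed, with 533 at an unadjusted p under 0.05 and 1 called by DESeq2. In PV/Th interneuron-like nuclei EPYC had 63 UMIs and was not fitted, with 5.57 CPM ± 2.72 (SD, n = 3) over OVT73 and 5.46 ± 1.61 (SD, n = 4) in control libraries. DCN in eccentric MSN-like nuclei was at 2.62 ± 1.84 and 2.99 ± 2.34 CPM from 20 UMIs. Whether the OVT73 difference itself differs between these classes and D1 or D2 MSNs was not tested.

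Pairs of the 4 genes shared nuclei more often than the product of their shares, given as a description since nuclei are not replicates. Nuclei with all 4 genes were not counted, and sheep of a pooled library were not held apart. In D1 MSN-like nuclei 106 held UMIs of EPYC and DCN, against 60.5 from the product of their shares within library, cluster and depth quartile. EPYC was with KERA in 50 nuclei against 29.1 and with LUM in 24 against 13.3. KERA was with DCN in 16 nuclei against 7.08, and LUM with DCN in 7 against 2.76. For the D2 class, EPYC was with DCN in 61 against 30.8 and with KERA in 29 against 12.97, and KERA was with DCN in 8 against 2.45. The D2 pairs with LUM were few, at 5 against 3.05 with EPYC, 2 against 0.360 with KERA and 2 against 0.676 with DCN. Put as shares, 71.4% of D1 MSN-like nuclei with KERA, 66.7% of those with LUM and 67.9% of those with DCN also held EPYC, beside 30.5% of all.

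**Figure D4:**
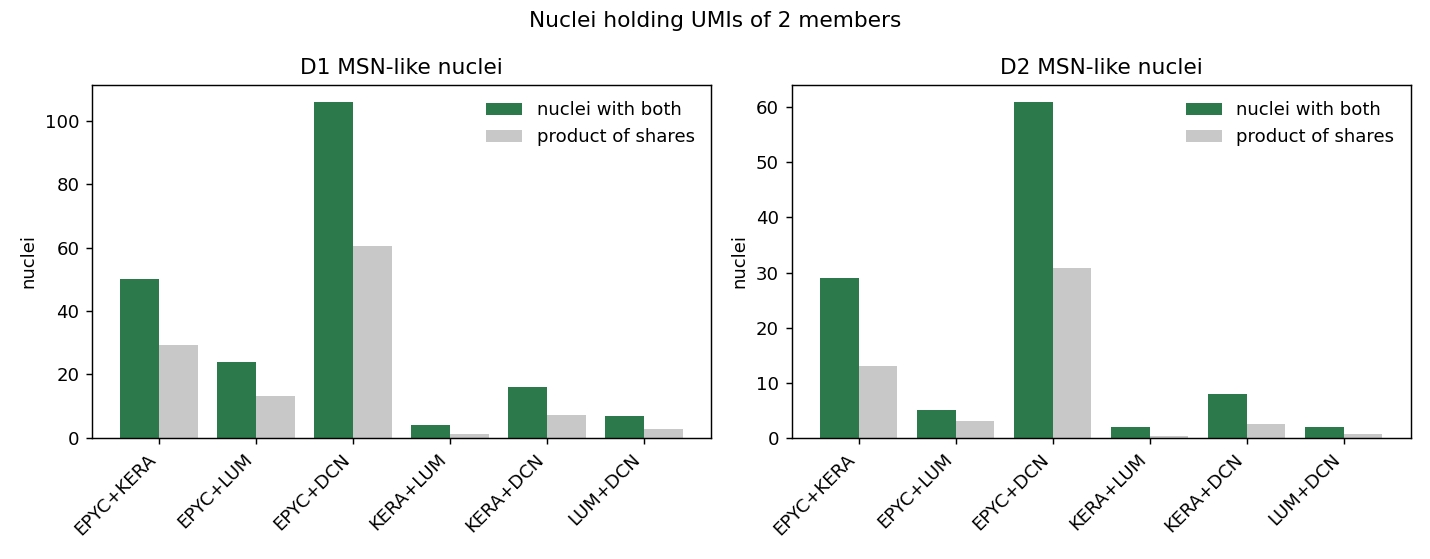
Number of D1 (left) and D2 (right) MSN-like nuclei with UMIs of 2 of the genes (green) beside the number from the product of their shares within library, cluster and depth quartile (grey). EPYC with DCN has 106 against 60.5 nuclei in D1 and 61 against 30.8 in D2.

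Nuclei with an EPYC UMI held more DCN. Of 10192 genes with at least 200 UMIs in D1 MSN-like nuclei, 638 were on the same side in 7 of 7 libraries, and DCN had the largest ratio of these. It was at 7.27 CPM in nuclei with and 1.34 in nuclei without EPYC, a ratio of 5.43, from 3.07 to 6.44 in single libraries. The next were AMTN, which encodes the enamel protein amelotin (2.09), MYH15, a myosin heavy chain gene (0.531), a gene without a symbol (1.88) and ZDHHC24, of a palmitoyltransferase family (1.86). KERA, with fewer than 200 UMIs, had a ratio of 6.14 (above 1 in 7 of 7 libraries) and LUM 4.41 (6 of 7). The MSN gene PDE10A was at 0.941 and the D1 marker TAC1 at 1.38. These ratios did not hold cluster or depth constant. With library, cluster and depth quartile held, D1 nuclei with both EPYC and DCN were 1.75 times the product of their shares.

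In D2 MSN-like nuclei the 5 largest ratios, again without cluster or depth held constant, were of genes lower in nuclei with EPYC. Among them were a gene without a symbol (0.310), ALK, a receptor tyrosine kinase (0.340), PTPRO, a receptor phosphatase (0.479), and TSHZ2, a zinc finger factor (0.483), of 9914 genes. ALK also led cluster 19, the D2 cluster with less EPYC, and was among the leading genes of the eccentric MSN-like cluster. DCN, with fewer than 200 UMIs there, was at 6.46 against 1.03 CPM, a ratio of 6.25 (above 1 in 7 of 7 libraries). KERA had 31 UMIs in nuclei with and 11 in nuclei without EPYC, a ratio of 10.0 (above 1 in 6 of 7 libraries). LUM had 5 and 8 UMIs, a ratio of 2.23, above 1 in 3 libraries and below 1 in 2. The D2 markers DRD2 and PENK were at 0.975 and 1.01.

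Of 15262 genes, those whose log2(CPM + 1) went most closely with DCN were EPYC and CRYBG1 (Pearson r = 0.825 for each), over 56 sums of 8 classes in 7 libraries that share libraries and depth. The 8 classes leave out perivascular-like nuclei, where DCN was at 301 CPM and EPYC had 0 UMIs, which allows up to 45.2 CPM. The sums include the D2 levels by which EPYC and DCN had been chosen, which fixed a part of the pattern they share. Next came ENSOARG00020003060, POU2AF1, a transcriptional coactivator, and another gene without a symbol. ENSOARG00020003060 was at 3.02 to 12.9 CPM in OVT73 and 13.1 to 32.1 in control D1 MSN-like nuclei, and at 3.47 to 12.6 and 13.5 to 29.1 in D2. Its log2 fold changes were -1.07 (SE 0.48) and -1.07 (SE 0.44) and did not pass (edgeR adjusted p = 0.944 and 0.898). The genes most like EPYC were one without a symbol (r = 0.908), FBXO15, FOCAD, GLRA2, a glycine receptor subunit, and ITPKA, an inositol trisphosphate kinase (0.892), with DCN at rank 147 and KERA at 570. FOCAD was at log2 fold changes of 0.12 in D1 and 0.11 in D2, and ITPKA at -0.43 and -0.49, none past the threshold. The genes most like KERA were one without a symbol (0.772), GPX6, a glutathione peroxidase, ITGA11, a collagen-binding integrin, FAM166A and GPR12, with EPYC at rank 10.

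The protein-coding neighbours of the cluster gave 0 calls between OVT73 and control libraries, as did all genes (0.0% by edgeR in each class), so that the count says nothing particular to them. Of 6 neighbours, 3 on each side, 4 had a feature of that symbol, and 3 were fitted in D1 and 2 in D2. ATP2B1, a plasma membrane calcium pump gene on the EPYC side, had log2 fold changes of 0.01 (SE 0.13) in D1 and 0.03 (SE 0.13) in D2. BTG1, an antiproliferation gene on the DCN side, had 0.40 (SE 0.20) and -0.22 (SE 0.26), and PLEKHG7 0.22 (SE 0.51) in D1. CCER1, next to EPYC, had 30 UMIs in D1 and 22 in D2 and did not pass the filter. It was at 0.151 to 0.489 CPM in OVT73 and 0.221 to 1.14 in control D1 MSN-like nuclei, and at 0.143 to 0.193 and 0.212 to 1.35 in D2. The D2 groups did not overlap, but this rests on few UMIs per library. The share of all genes without overlap at such counts was not computed, and nothing is read from it.

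Other genes of the matrix pathway also gave 0 calls between OVT73 and control MSN-like nuclei, beside 0.0% of all genes by edgeR. The values that follow are log2 fold changes in D1 and then D2. Of 13 other small leucine-rich proteoglycan genes, 3 were fitted, with medians of -0.09 and -0.14 beside -0.03 over all genes in each class. ECM2 was at -0.04 (SE 0.40) and -0.14 (SE 0.40), OGN (osteoglycin) at -0.09 (SE 0.54) and -0.11 (SE 0.51), and ASPN (asporin) at -0.30 (SE 0.44) and -0.71 (SE 0.50). Of 30 genes for glycosaminoglycan chain synthesis, 16 and 17 were fitted, with medians of -0.12 and 0.02. Among them were CHSY3, a chondroitin synthase (0.09 and 0.21), and the sulfotransferases UST (0.06 and 0.24) and CHST11 (-0.01 and 0.02). Of 16 collagens, 9 and 8 were fitted, with medians of 0.11 and -0.14, among them COL14A1 (-0.34 and -0.20), COL24A1 (-0.02 and -0.29) and COL11A1 (0.11 and -0.22). At an unadjusted p under 0.05 these lists had 0, 1 and 0 genes in D1 and 0, 1 and 1 in D2.

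Brain matrix proteoglycans and their links gave 8 and 7 of 12 genes fitted, with medians of 0.09 and 0.07. PTPRZ1, a receptor phosphatase proteoglycan, was at 0.43 and 0.29, TNR (tenascin-R) at 0.12 and 0.07, and BCAN (brevican) at -0.10 and -0.35. Receptors and growth factors bound by decorin or lumican gave 12 of 20 listed symbols fitted in each, with medians of -0.08 and -0.06. Among the symbols listed, CTGF and CCN2 name the same gene. IGF1R was at 0.05 and 0.05, EGFR at -0.30 and -0.07, and ERBB4 at -0.51 and 0.31. Of 8 striosome genes 8 and 7 were fitted (medians -0.08 and -0.17), with OPRM1 at 0.52 and 0.38, TAC1 at -0.17 and -0.19, and KCNIP1 at 0.81 and 0.72. Of 7 genes of the striatal matrix compartment 6 were fitted in each (medians -0.01 and 0.03), with EPHA4 at 0.32 and 0.23, SGK1 at 0.08 and 0.11, and CRYM at -0.11 and -0.06. At an unadjusted p under 0.05 these lists had 1, 1, 0 and 2 genes in D1 and 1, 1, 1 and 0 in D2, and all had 0 past the adjusted threshold by edgeR.

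Markers of other cells in MSN-like nuclei gave 0 calls as well, beside the same 0.0% of all genes. Of 10 fibroblast markers 3 were fitted in each class, with LAMA2 at -0.49 and -0.20, SLC13A3 at -0.03 and 0.07, and CEMIP at -0.30 and -0.49. Of 8 pericyte and smooth muscle markers 4 were fitted in each, with ACTA2 at -0.45 and -0.56, MYH11 at 0.58 and 0.72, and ABCC9 at 0.42 and 0.52. At an unadjusted p under 0.05 these lists had 0 and 1 genes in D1 and 0 and 1 in D2. Of the genes named, SLC13A3, ACTA2 and MYH11 had 0 UMIs in perivascular-like nuclei.

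Between D2 and D1 MSN-like nuclei, 2 of 16 chain synthesis genes were lower and 4 higher in D2, and 0 of 3 other small leucine-rich proteoglycan genes passed, beside the 12.7% of all genes. CHSY3 (log2 difference -0.14, SE 0.02) and XYLT1 (-0.79, SE 0.05) were lower. UST (0.17, SE 0.05), CSGALNACT1 (1.94, SE 0.09), DSEL (0.23, SE 0.07) and ST3GAL1 (0.66, SE 0.22) were higher. COL14A1, a fibril-associated collagen gene, was lower in D2 (-0.54, SE 0.13, edgeR adjusted p = 0.0460), as was PTPRZ1 (-0.97, SE 0.05). TGFB3 (-0.63, SE 0.19), of the receptor and growth factor list, was also lower. BCAN (0.30, SE 0.08), EGFR (0.23, SE 0.05) and COL2A1 (0.64, SE 0.13) were higher. Of the collagens 1 of 7 was lower and 1 higher, and of the brain matrix genes 1 of 7 lower and 1 higher. Of the receptors and growth factors 1 of 11 was lower and 1 higher. The fibroblast and pericyte markers had 0 of 3 and 0 of 4 past the threshold.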

How the data were processed

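Per the labels and the study's methods, the authors made droplet 3' libraries of striatal nuclei and deposited raw UMI counts per gene and barcode, made with Cell Ranger 7.0.0 (STAR 2.7.2a in the submitters' processing notes) on Oar_rambouillet_v1.0. The study does not state whether intronic reads were counted. Its read statistics give a larger share mapped to the transcriptome than to exonic regions in every library, which requires counted reads outside exons.

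Nuclei with 200 to 7500 genes and at most 5% mitochondrial UMIs were kept, less the 4% of each library with the highest doublet scores (1358). Variable genes were picked with scanpy 1.11.5, and principal components were corrected for library with a Harmony method. Leiden clustering of shared neighbours at resolution 1.0 gave 30 clusters, which were named by at least 3 raised markers. Each library belongs to OVT73 or control alone, so that the correction by library also acts between the groups. The naming rule was adjusted after marker profiles, but not group differences, were seen. UMIs were summed per library and class and fitted with edgeR 4.0.16 (filterByExpr, TMM, robust quasi-likelihood), adjusted over all genes fitted. DESeq2 1.42.0 was an alternative. The test of the members between D2 and D1 planned over all libraries, with a sign-flip permutation test, is given without p. D2 levels in OVT73 chose EPYC and DCN. The fit in control libraries is likewise given without p for the members, since control levels also entered the contrast that chose them. Scripts were tested on simulated data. Nuclei were not assigned to sheep, so that the library is the replicate. P-values between OVT73 and control measure the spread between libraries. Those between D2 and D1, with library as a block, measure the spread of the difference within libraries. The members and lists were chosen with earlier results of these data known. Genes named are the members, the 3 most abundant of each list, list genes past the threshold between OVT73 and control, the 5 most like each member with at least 100 UMIs, the 5 largest ratios between nuclei with and without EPYC, and markers on which a value turns. A gene among those ratios is not reported here. The list genes named between D2 and D1, the remarks on CCER1 and ENSOARG00020003060 and the subsets by cluster and depth were chosen after values were seen.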

Additional observations from a re-analysis of the deposited data

How the results depend on the processing

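Every fold change of a member kept its direction under the alternatives run. For EPYC and DCN in D2 and KERA in D1 this is no support. The same nuclei and libraries chose them as lower in OVT73, and these D2 levels also enter the D2 and D1 contrast. For EPYC between D2 and D1 MSN-like nuclei, leaving out 1 library gave -0.58 to -0.43, and for DCN -0.54 to -0.35. For DCN the difference was -0.49 with classes set by marker UMIs and, in alternatives chosen after seeing the data, -0.89 in the largest clusters and -0.64 in nuclei of 10000 to 30000 UMIs. For EPYC it was -0.28 in the control libraries alone, -0.49 without control library 3 and -0.48 without OVT73 library 1. Genes called in that contrast were 951 by DESeq2, 3710 in the largest clusters and 728 in the control libraries alone, against 1497. Between OVT73 and control libraries, KERA in D1 ranged from -3.02 (without OVT73 library 3) to -1.74 when 1 library was left out. Calls rose from 0 to 3 by DESeq2 in D1, and in D2 to 6 by DESeq2 and 1 without the filter on low counts, with 0 to 1 when 1 library was left out (1 without OVT73 library 3). The causes were not tested. No paired analysis was possible because replicate numbers only follow accession order and do not tie an OVT73 to a control library. KERA, LUM and DCN rest on few UMIs, which limits their subsets most.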
